A study of Mus musculus with 4 samples.

Results

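The transporters and channels of the melanosome membrane that set its pH, copper, calcium and cystine were compared between a non-pigmented and a pigmented mouse melanocyte line. The members were Oca2, Slc45a2, Slc24a5, Slc24a4, Tpcn2, Atp7a, Mfsd12 and Ctns, and every probe set annotated to exactly one of these symbols was taken. This gave 9 of the 45037 probe sets of the array and 7 of 18193 genes. Slc24a5 was not analysed here. All cells were skin melanocytes of Balb/c background, grown in RPMI 1640 medium with FCS, 2-Mercaptoethanol and the phorbol ester TPA. The non-pigmented cells were homozygous for a point mutation of the tyrosinase gene (2 arrays). The pigmented cells were labelled wild type, with that mutation corrected (2 arrays). Total RNA was hybridised to Affymetrix mouse expression arrays. The labels do not say how many clones or cultures the arrays of a line came from, so each p-value reflects the spread of these arrays alone, which may be technical.

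Melanin is made in melanosomes, organelles related to lysosomes, by tyrosinase, a copper enzyme that works poorly at acid pH. Proton pumps acidify the organelle. Some transporters in its membrane oppose that acidification, and others move calcium or load copper. Cysteine and cystine inside the melanosome steer synthesis towards red-yellow pheomelanin, and loss of several of these transporters lightens the coat, skin or eyes of mice and humans.

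Values are probe set signals on a linear scale, which the authors had scaled to a common level per array. Their median was 111 and 99.7 on the non-pigmented arrays and 130 and 126 on the pigmented arrays (replicates 1 and 2). The arrays differed in RNA integrity as read from the 3′ to 5′ signal ratio of the Gapdh control probe sets. In the first replicate that ratio was 0.903 for the non-pigmented and 0.864 for the pigmented line. In the second it was 20.2 for the non-pigmented and 16.8 for the pigmented line. Each line thus had 1 array of either kind, and differences are given below within these pairs where they matter. A low ratio is called high integrity below, and a high ratio low integrity. These names rest on the ratio alone, and what caused the ratios to differ was not tested. The dates in the sample titles cut across these pairs. The first date held the non-pigmented array of high and the pigmented array of low integrity, and the second date the reverse. Differences within a title date therefore also hold a difference in integrity. Differences are non-pigmented minus pigmented on the scale of log2(signal + 16), with the standard error of limma after ±, and a gene was called at a Benjamini-Hochberg adjusted p under 0.05 over the 12558 genes that passed a filter on dim probe sets (a signal of 70.7). With 2 arrays against 2, no exact permutation test of a single gene can give a two-sided p below 0.333.

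Of the 8 melanocyte markers called among 11 tested, all were lower in the non-pigmented line, whereas Sox10, the neural crest factor that melanocytes and Schwann cells share, had signals of 8268 and 8558 on the non-pigmented and 8602 and 10232 on the pigmented arrays. The mean log2 value of the 11 markers was 9.35 and 9.55 on the non-pigmented arrays and 13.28 and 13.18 on the pigmented arrays. Of 8 Schwann cell and progenitor markers tested, 5 were called (Mbp, Nes, Pmp22, S100b and Sox2), all higher in the non-pigmented line. Without the filter only Mbp, Nes and S100b were called, and Pmp22 had an adjusted p of 0.0808 by limma. With averaged probe sets Nes did not pass (2.05, adjusted p of 0.0825), and 2 of its 3 probe sets ran that way. The mean log2 value of the 9 on the array was 9.82 and 10.10 on the non-pigmented arrays, against 6.89 and 6.96 on the pigmented arrays. The share over all tested genes was 1.33% called lower and 2.03% called higher. The same mean over fibroblast markers (9 on the array) was 6.78 and 6.58 on the non-pigmented and 6.54 and 6.23 on the pigmented arrays. It lay between 5.95 and 6.97 on all arrays for keratinocyte, immune and endothelial markers (7, 7 and 4 on the array). No tested fibroblast, immune or endothelial marker was called by limma (0 of 4, 0 of 4 and 0 of 1). At an unadjusted p under 0.05 these lists held 1, 0 and 0, against 13.8% of all tested genes. The fibroblast marker was Col1a2, at -2.11 ± 0.46 (adjusted p of 0.0766). It was called lower blocked on RNA integrity (0.0308), with averaged probe sets (-3.03, 0.0191) and with probe sets unique to a gene (-3.99, 0.0101). The median difference of the 4 fibroblast markers was 0.14. Of 3 keratinocyte markers tested, Krt10, a keratin, was called higher in the non-pigmented line, and the median difference of the 3 was 2.51. Krt10 read 306 and 264 on the non-pigmented and 8.84 and 39.4 on the pigmented arrays, a difference of 3.02 ± 0.54 (adjusted p of 0.0426 by limma). It did not pass without the filter (0.0834), at a pseudocount of 1 (0.0743) or without non-pigmented replicate 1 (0.157) or 2 (0.125). Pkp1, a desmosome protein gene, differed by 2.51 ± 0.50 (adjusted p of 0.0601) and passed blocked on RNA integrity (0.0418), among other settings. Krt10, Pkp1, Kit, Ednrb, Sox2 and Nes passed the filter on dim probe sets only through the line in which they were high. No marker was at 0. The part of these marker shifts in the transporter values was not tested.

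Among the 7 transporters with a probe set, Oca2 and Slc24a4 fell in the non-pigmented line. Oca2 fell by 77.3-fold (95% interval 38.9 to 154-fold), to signals near the array medians. Slc24a4 fell to signals that cannot be told from background, so that its fold depends on the pseudocount. The fold of Oca2 depends on the pseudocount too, though less. Slc45a2 was lower on both non-pigmented arrays than on either pigmented array, 7.94-fold between the means, but did not pass the test. Ctns was lower by a smaller factor, also without passing. Atp7a and Mfsd12 had differences close to 0, and Tpcn2 was higher in the non-pigmented line by 0.59 without passing. The intervals of these genes were wide and included 0. In all, 2 of the 7 genes were called lower and 0 higher, where 1.33% of all tested genes were called lower, 2.03% higher and 3.36% in either direction. All 7 passed the filter, but Slc24a4 did so through the pigmented arrays alone, so its count among the called genes is partly fixed by that. The groups did not overlap in 5 of the 7, with 4 lower and 1 higher in the non-pigmented line. Of all tested genes, 24.4% were lower and 19.5% higher without overlap, 43.9% in all. The median difference of the 7 was -1.30, against -0.07 over all tested genes. These are whole-culture RNA levels, in which fewer cells expressing a gene and less RNA per cell cannot be told apart.

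**Figure D1:**
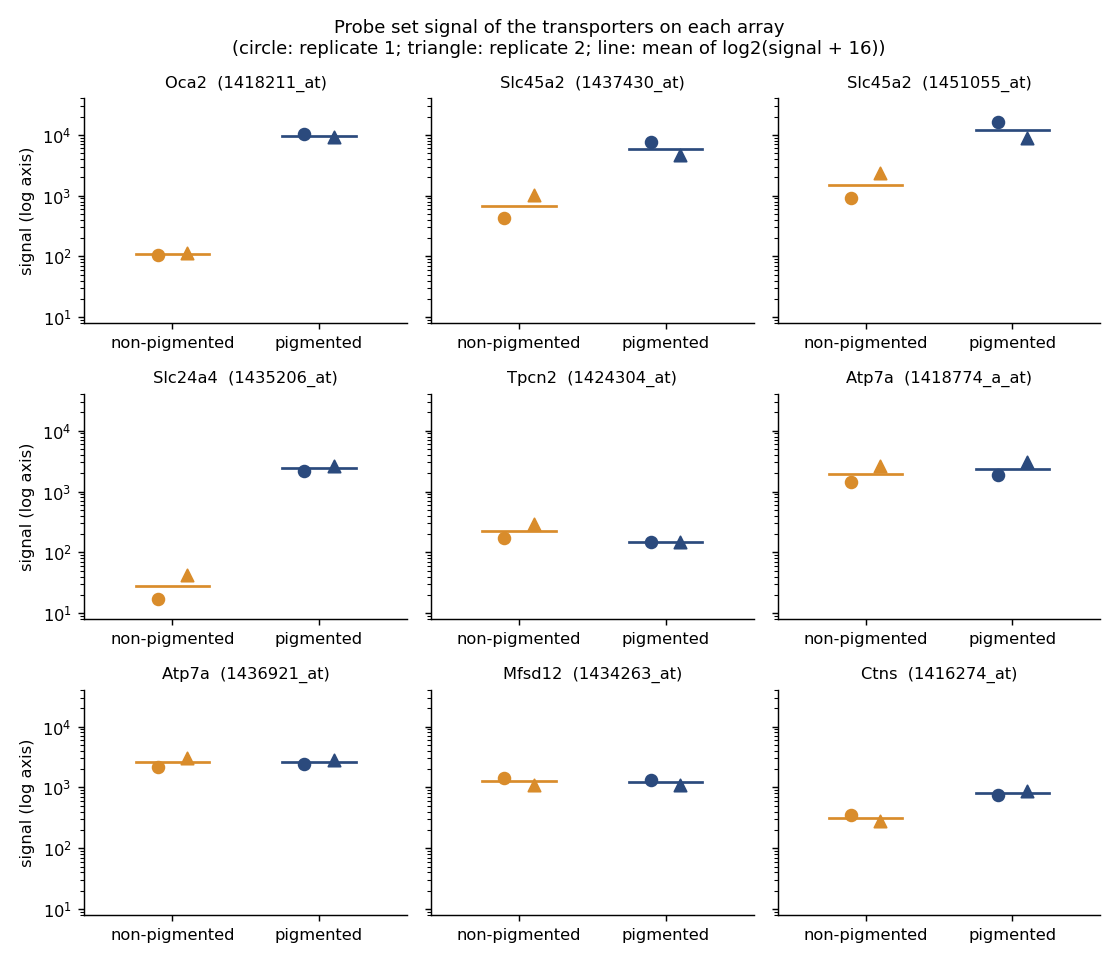
Signal of each of the 9 transporter probe sets on the 4 arrays (log axis; circles replicate 1, triangles replicate 2; lines, mean of log2(signal + 16) turned back to a signal). Oca2 and Slc24a4 stay at or below 115 on the non-pigmented arrays and at or above 2203 on the pigmented arrays, while the Atp7a and Mfsd12 signals of the lines interleave.

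Oca2 encodes the melanosomal protein lost in pink-eyed dilution mice, an anion conductance that raises the pH of the organelle. Its gene lies on chromosome 7 (56239593 to 56536518, GRCm38.p6). Its single probe set, 1418211_at, read 104 and 115 on the non-pigmented arrays and 10298 and 9101 on the pigmented arrays. The arrays of a line lay close together, and the lines were far apart. The non-pigmented signals were above those of 48.4% and 53% of the probe sets on their arrays, and no detection call was available. With a pseudocount of 1 the difference was -6.45, and with 64 it was -5.81. The mean log2 value was 6.97 ± 0.09 in the non-pigmented and 13.24 ± 0.13 in the pigmented line (SD, n = 2 each), a difference of -6.27 ± 0.41 and 77.3-fold lower (95% interval 38.9 to 154-fold). The adjusted p by limma was 0.00512. Over all tested genes, 0.0956% had a difference at least this low. The difference was -6.25 and -6.30 within the 2 title dates, and -6.43 and -6.12 within the pairs of high and low RNA integrity.

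Slc24a4 encodes NCKX4, a potassium-dependent exchanger of sodium for calcium, and human variants near it are linked to hair and eye colour. It lies on chromosome 12 (102128727 to 102267133, GRCm38.p6). Probe set 1435206_at read 17.4 and 42.3 on the non-pigmented arrays, both below the filter signal of 70.7, and 2203 and 2597 on the pigmented arrays. No detection call was available, so the non-pigmented values cannot be separated from background. The mean log2 value was 5.46 ± 0.57 in the non-pigmented and 11.23 ± 0.17 in the pigmented line (SD, n = 2 each), a difference of -5.77 ± 0.47, or 54.6-fold lower (95% interval 24.9 to 120-fold). The adjusted p by limma was 0.00585. Its size depends on the pseudocount, with a difference of -6.41 at a pseudocount of 1 and -4.72 at 64. The difference was -6.06 and -5.49 within the pairs of high and low RNA integrity.

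Slc45a2 encodes the protein lost in underwhite mice, a sugar transporter relative that is needed for a less acid melanosome. It lies on chromosome 15 (11000721 to 11029233, GRCm38.p6) and has a pair of probe sets. Probe set 1451055_at, which stood for the gene, read 916 and 2367 on the non-pigmented arrays and 16021 and 8714 on the pigmented arrays. Probe set 1437430_at read 437 and 1005 on the non-pigmented arrays and 7608 and 4637 on the pigmented arrays. Both probe sets separated the lines, and in both the non-pigmented array of low RNA integrity was the higher of its line and the pigmented array of low integrity the lower of its line. The difference was -2.99 ± 0.57 for the gene, 7.94-fold lower (95% interval 3.03 to 20.8-fold). The adjusted p by limma was 0.0522, just outside the threshold. Within the pair of high integrity it was -4.11, and within the pair of low integrity -1.87. Within the title dates it was -3.23 and -2.75. The standard error was 0.61 with the title date as a block, against 0.57 without a block, and 0.53 blocked on RNA integrity. A lower adjusted p in the date block thus does not mean a smaller error. Blocking on the title date (replicate block) gave an adjusted p of 0.0246 and blocking on RNA integrity 0.0375 (1.16% and 2.72% of all tested genes were called lower in these fits), and 3 of the 7 transporters were then called. Without non-pigmented replicate 1 it was 0.134 (difference -2.31), without non-pigmented replicate 2 it was 0.0286 (-3.67), without pigmented replicate 1 0.0492 (-2.55) and without pigmented replicate 2 0.0122 (-3.43). When all probe sets were tested, both Slc45a2 probe sets missed the threshold, with differences of -3.13 and -2.99 and adjusted p-values of 0.0707 and 0.0888.

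Ctns encodes cystinosin, which carries cystine out of lysosomes together with protons. It lies on chromosome 11 (73183133 to 73199115, GRCm38.p6). Probe set 1416274_at read 350 and 285 on the non-pigmented arrays and 738 and 874 on the pigmented arrays, without overlap. The difference was -1.30 ± 0.42, 2.47-fold lower (95% interval 1.23 to 4.97-fold). It did not pass, with an adjusted p of 0.222 by limma and an unadjusted p of 0.0193. The difference was -1.28 and -1.33 within the title dates and -1.04 and -1.56 within the pairs of high and low integrity. The lack of overlap already fixes the sign in every pair. Of all tested genes, 5.42% were at least this low.

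Mfsd12, the gene of grizzled mice, is needed to bring cysteine into melanosomes and lysosomes. It lies on chromosome 10 (81357491 to 81366225, GRCm38.p6). Probe set 1434263_at read 1433 and 1105 on the non-pigmented arrays and 1327 and 1104 on the pigmented arrays. The lines interleaved, and the difference was 0.06 ± 0.42 with an adjusted p of 0.977 by limma. The 95% interval ran from -0.97 to 1.08, so changes within that range were not excluded.

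Atp7a encodes the copper pump that loads tyrosinase with its metal and is defective in Menkes disease. It lies on the X chromosome (106027224 to 106128161, GRCm38.p6). Probe set 1436921_at, which stood for the gene, read 2155 and 3061 on the non-pigmented arrays and 2391 and 2844 on the pigmented arrays. Probe set 1418774_a_at read 1414 and 2664 on the non-pigmented arrays and 1853 and 3064 on the pigmented arrays. On both, the array of low integrity was the higher in each line, and the lines overlapped. The gene differed by -0.02 ± 0.41 (95% interval -1.01 to 0.96), with an adjusted p of 0.992 by limma. The other probe set differed by -0.29 ± 0.52 (95% interval -1.55 to 0.97), with an adjusted p of 0.885 over all probe sets.

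Tpcn2 encodes a cation channel of endolysosomes and melanosomes that lets sodium and calcium out, and human variants of it are linked to hair colour. It lies on chromosome 7 (145181633 to 145284011, GRCm38.p6). Probe set 1424304_at read 175 and 295 on the non-pigmented arrays and 146 and 147 on the pigmented arrays. It was the only one of the 7 genes with every non-pigmented array above the pigmented arrays. The difference was 0.59 ± 0.46 (95% interval -0.52 to 1.69), with an adjusted p of 0.678 by limma, and 40.1% of all tested genes were at least as far from 0.

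**Figure D2:**
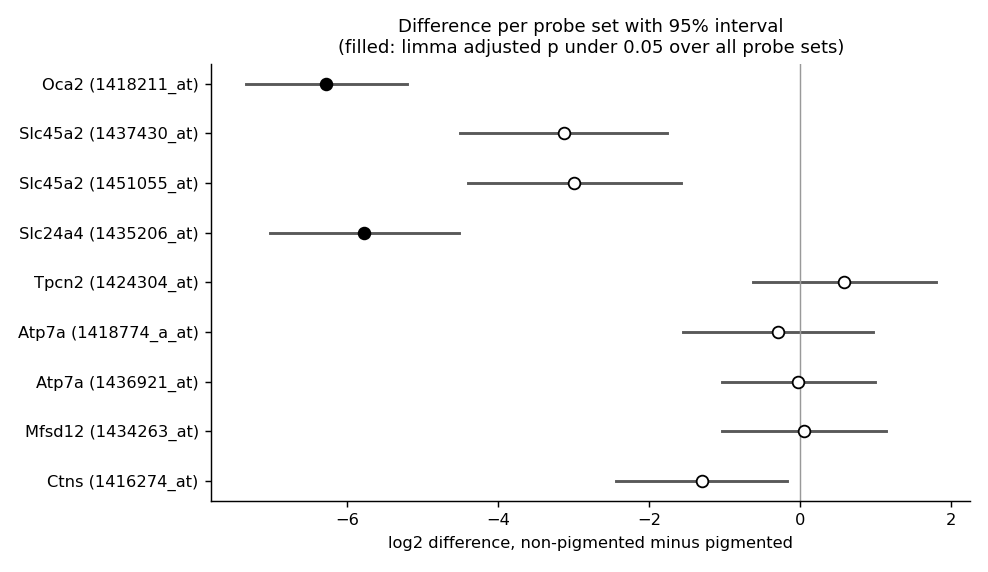
Log2 difference of each transporter probe set, non-pigmented minus pigmented, with its 95% interval from limma (filled points, adjusted p under 0.05 over all 27022 tested probe sets). The points of Oca2 (-6.27) and Slc24a4 (-5.77) are filled, and the intervals of Tpcn2, Atp7a and Mfsd12 include 0.

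Among all tested probe sets 0.585% were called lower, 0.903% higher and 1.49% in either direction. Of the 9 transporter probe sets, those of Oca2 (adjusted p of 0.0128) and Slc24a4 (0.0154) were called, both lower. The 7 transporters therefore fell into 3 ranges of difference. Oca2 and Slc24a4 lay near -6, Slc45a2 near -3, and Ctns, Tpcn2, Atp7a and Mfsd12 between -1.30 and 0.59. The intervals of Oca2 and Slc24a4 overlapped each other. The interval of Slc45a2 (-4.38 to -1.60) overlapped that of Ctns (-2.31 to -0.29).

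**Figure D3:**
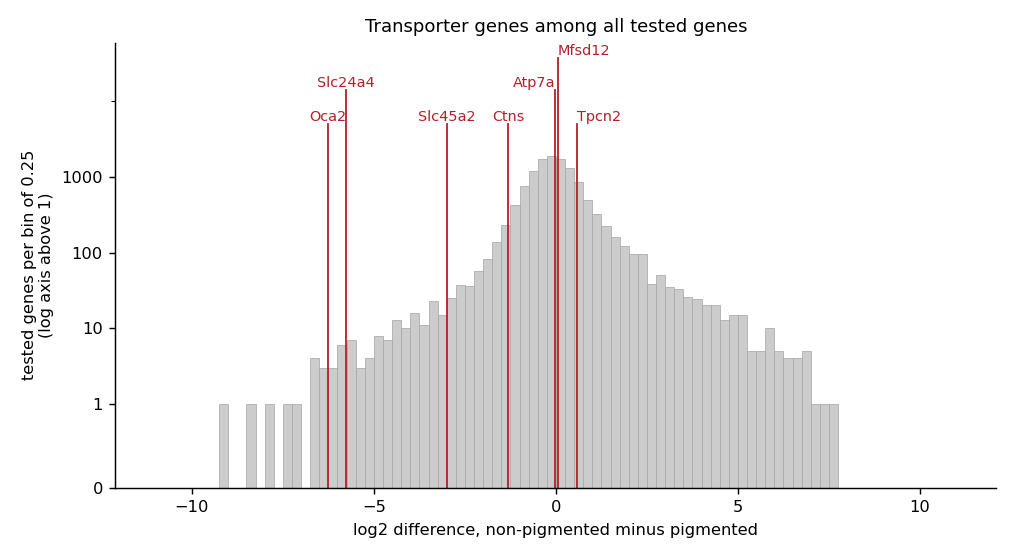
Log2 differences of the 12558 tested genes in bins of 0.25 (grey, log axis above 1), with the 7 transporter genes as red lines. Oca2 and Slc24a4 lie in the sparse tail of genes lower in the non-pigmented line, and Atp7a (-0.02) and Mfsd12 (0.06) at the centre.

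**Figure D4:**
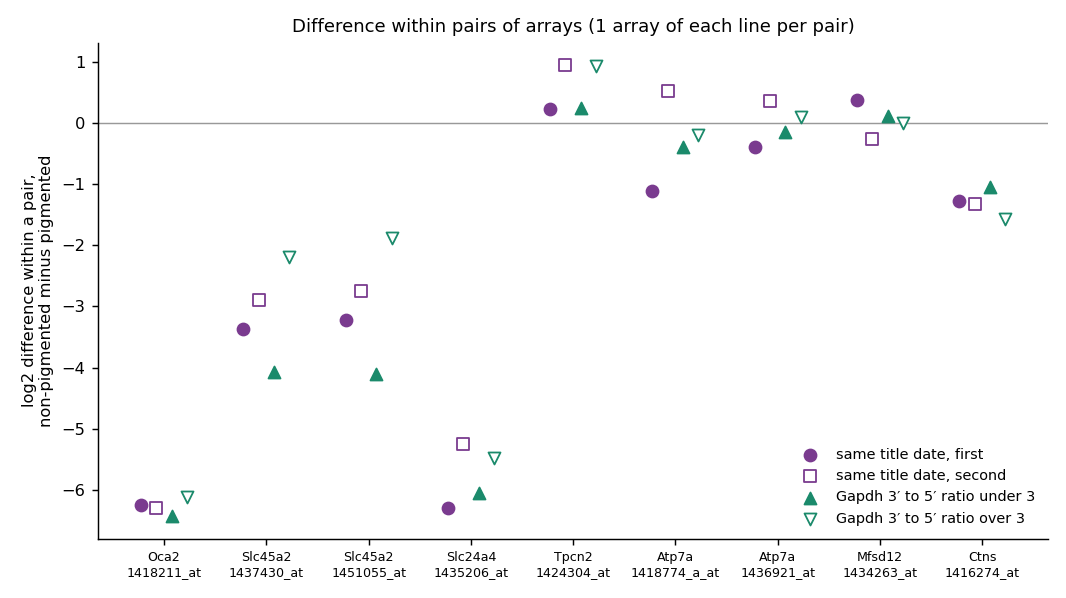
Log2 difference, non-pigmented minus pigmented, of each transporter probe set within pairs that hold 1 array of each line, by title date (purple) and by RNA integrity (green, Gapdh 3′ to 5′ ratio under or over 3). Oca2 lies between -6.43 and -6.12 in every pair, whereas Slc45a2 (1451055_at) ranges from -4.11 to -1.87. Atp7a and Mfsd12 change sign between the title dates. Each title date pairs arrays of unlike RNA integrity, so its differences also hold a difference in integrity.

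The promoters of Oca2 and Slc24a4 are shown because these genes fell together, and that of Atp7a for contrast, since its lines did not separate. Of the 7 genes, 6 matched the RefSeq promoter table (GRCm38.p6), which spans 250 bases before to 50 after each start, and Slc45a2 did not match. Mitf, the transcription factor that binds the letters CATGTG and CACGTG in pigment and lysosomal promoters, itself read 796 and 1576 on the non-pigmented arrays and 13405 and 10158 on the pigmented arrays. Capitals mark CATGTG (on the other strand CACATG) and CACGTG, both searched on both strands. All sequences run 5′ to 3′ along the gene.
Oca2 promoter, chr7:56239509-56239808 (+ strand): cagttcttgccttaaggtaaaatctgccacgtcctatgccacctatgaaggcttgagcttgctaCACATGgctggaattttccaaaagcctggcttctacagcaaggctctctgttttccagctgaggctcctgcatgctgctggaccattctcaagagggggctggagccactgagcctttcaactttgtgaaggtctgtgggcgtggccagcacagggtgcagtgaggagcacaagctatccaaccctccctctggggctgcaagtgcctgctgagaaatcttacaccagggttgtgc
Slc24a4 promoter, chr12:102128477-102128776 (+ strand): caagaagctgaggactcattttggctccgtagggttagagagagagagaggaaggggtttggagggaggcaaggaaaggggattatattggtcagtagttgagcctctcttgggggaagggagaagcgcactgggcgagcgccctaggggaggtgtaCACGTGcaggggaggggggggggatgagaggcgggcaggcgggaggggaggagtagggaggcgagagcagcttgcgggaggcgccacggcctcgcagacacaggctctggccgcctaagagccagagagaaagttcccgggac
Atp7a promoter, chrX:106026974-106027273 (+ strand): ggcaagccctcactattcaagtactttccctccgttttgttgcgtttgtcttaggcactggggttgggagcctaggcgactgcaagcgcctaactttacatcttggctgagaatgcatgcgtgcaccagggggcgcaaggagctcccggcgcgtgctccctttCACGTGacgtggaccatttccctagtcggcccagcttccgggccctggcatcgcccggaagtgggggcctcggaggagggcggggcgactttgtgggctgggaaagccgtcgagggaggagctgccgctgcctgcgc
The start used for the Oca2 window is position 56239759, 166 bases inside the gene as given above, whereas those of Slc24a4 and Atp7a are the first bases of the genes. The Oca2 window held CATGTG once, on the strand opposite to the gene, from 186 bases upstream of the start used. The Slc24a4 window held CACGTG 93 bases upstream, and the Atp7a window held CACGTG 87 bases upstream. In Atp7a it is flanked so that TCACGTG, which overlaps it, reads on both strands. The windows of Tpcn2, Mfsd12 and Ctns held neither motif. Of all 32851 windows of this length, 14.2% held CATGTG, 7.15% CACGTG and 3.77% TCACGTG. The motifs thus stood in windows of both genes that fell and in that of Atp7a, which did not pass. Binding of Mitf to these windows, and any part of Mitf in the levels of these genes, was not tested.

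Of 19 relatives of the transporters, 14 were tested. Limma called 1 lower in the non-pigmented line and 0 higher, against 1.33% and 2.03% of all tested genes. The one called was Slc24a3, which encodes another exchanger of the NCKX family. It read 80.6 and 99.5 on the non-pigmented arrays and 1288 and 1864 on the pigmented arrays. Its difference was -3.89 ± 0.43, with an adjusted p of 0.00962 by limma, and it was called under every alternative listed in the methods. Slc45a3, a relative of Slc45a2, had the smallest p among the others, with a difference of -1.57 ± 0.51 and an adjusted p of 0.235. The list median was -0.35. Tpcn1, the other TPC channel of mice, read 2158 and 1376 on the non-pigmented and 851 and 1450 on the pigmented arrays, and the Menkes pump's relative Atp7b read 82.7 and 202 on the non-pigmented and 163 and 223 on the pigmented arrays. Neither separated the lines, and both were chosen after their values were seen.

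Of 17 tested ion channels, exchangers and receptors of endolysosomes and melanosomes, 3 were called lower in the non-pigmented line and 0 higher. The shares over all tested genes were 1.33% and 2.03%. The other 14 did not pass, and the list median was -0.36. Trpm1, a cation channel of melanocytes, differed by -6.07 ± 0.39 (adjusted p of 0.00512 by limma). Mcoln3, an endolysosomal cation channel of the mucolipin family, differed by -5.81 ± 0.51 and read 108 and 49.9 on the non-pigmented and 6358 and 4046 on the pigmented arrays. Gpr143, a melanosomal receptor, differed by -5.78 ± 0.47. The chloride-proton exchanger gene Clcn7, which serves lysosomes in general, read 1319 and 2038 on the non-pigmented and 1645 and 2722 on the pigmented arrays, and Mcoln1 read 1558 and 1875 on the non-pigmented and 1606 and 2497 on the pigmented arrays. The metal transporter gene Slc11a2 had the smallest p among the 14, with a difference of -1.20 ± 0.42 and an adjusted p of 0.264, and 2 of its 4 probe sets ran that way.

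Of 19 tested subunits and partners of the vacuolar proton pump, which acidifies melanosomes, 2 were called lower in the non-pigmented line and 1 higher. The shares over all tested genes were 1.33% and 2.03%. The other 16 did not pass, and the list median was -0.24. Atp6v0d2 read 63.4 and 73.8 on the non-pigmented and 4234 and 4151 on the pigmented arrays, a difference of -5.64 ± 0.41 (adjusted p of 0.00520 by limma). Its non-pigmented mean lay under the filter, so that, like Slc24a4, it was tested only because of its pigmented arrays. Atp6v0e2 was the one higher, with signals of 2504 and 1080 on the non-pigmented and 97.1 and 65.0 on the pigmented arrays and a difference of 4.12 ± 0.54 (adjusted p of 0.0164). Atp6v0a1 differed by -2.06 ± 0.37 (adjusted p of 0.0424), but did not pass with the title date as a replicate block (0.161), after centring on the array median (0.0677), without the filter (0.0555), with eBayes without trend (0.0556) or when any single array was left out (0.0679 to 0.228). With its probe sets averaged the difference was -1.43 (adjusted p of 0.244). Atp6v1b2 had the smallest p of the others, with a difference of -1.33 ± 0.39 and an adjusted p of 0.179 (0.0316 when blocked on RNA integrity).

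Of 22 tested genes of copper handling, limma called 0 at the adjusted threshold and 3 had an unadjusted p under 0.05, a share near the 13.8% of all tested genes, with a list median of -0.16. Cp, which encodes the copper oxidase ceruloplasmin, had the smallest p. It read 1982 and 9608 on the non-pigmented and 208 and 808 on the pigmented arrays, and in both lines the array of low integrity was the higher. Cp differed by 3.35 ± 0.93, and its adjusted p was 0.154. Blocked on RNA integrity it passed (0.00584), as did Sod3, in a fit that called 4.32% of all tested genes higher. Without non-pigmented replicate 1 Cp had an adjusted p of 0.0449, and without pigmented replicate 2 one of 0.0146. Atox1, the chaperone that hands copper to Atp7a, read 5779 and 3614 on the non-pigmented and 7548 and 3163 on the pigmented arrays. Slc31a1, the copper importer of the cell surface, read 542 and 1175 on the non-pigmented and 1186 and 1835 on the pigmented arrays, with a difference of -0.87 ± 0.54 and an adjusted p of 0.573. Its probe sets disagreed, with 1 of 2 in that direction.

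Of 16 tested genes of cystine and cysteine handling, limma called 0, and 3 had an unadjusted p under 0.05 (13.8% over all tested genes), with a list median of -0.24. Slc7a9, a cystine transporter subunit, had the smallest p, with a difference of -1.54 ± 0.46 and an adjusted p of 0.184. It read 54.0 and 40.9 on the non-pigmented and 198 and 141 on the pigmented arrays. Its non-pigmented mean lay under the filter, so it was tested only because of its pigmented arrays. Slc3a2, the heavy chain that cystine importers share with other amino acid transporters, read 5836 and 5161 on the non-pigmented and 10086 and 12247 on the pigmented arrays, and differed by -1.02 ± 0.32 (adjusted p of 0.209). Ifi30, a lysosomal thiol reductase, read 1821 and 5287 on the non-pigmented and 1451 and 1282 on the pigmented arrays and did not pass (adjusted p of 0.468).

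Among 27 tested genes of the complexes that sort cargo, Oca2 and Atp7a included, to melanosomes, limma called 0, and 4 had an unadjusted p under 0.05, a share near the 13.8% over all tested genes. Rab38, a small GTPase of that route, had the smallest p, with a difference of -2.98 ± 0.64 and an adjusted p of 0.0737. It was called with the title date as a replicate block (0.0434), blocked on RNA integrity (0.0254), without non-pigmented replicate 2 (0.0165) and without pigmented replicate 1 (0.0418). Blocked on RNA integrity, 4 of the list were called lower, Rab38 with Ap1s2, Hps3 and Hps4, where that fit called 2.72% of all tested genes lower. The list median was -0.26. Of the 6 genes of melanosomal enzymes and matrix, 4 were called lower (1.33% over all tested genes), with a median of -3.62. All 4 are also among the 8 called melanocyte markers, as are Trpm1 and Mitf, so these lists are not separate evidence. Tyr differed by -6.69 ± 0.60, Pmel by -4.38 ± 0.36, Dct by -4.25 ± 0.34 and Mlana by -2.99 ± 0.40, the last close to the difference of Slc45a2. Gpnmb differed by -1.02 ± 0.33 and did not pass (adjusted p of 0.234). Tyrp1 did not pass either, with a difference of -2.11 ± 0.83 (adjusted p of 0.332 by limma). Its non-pigmented arrays were far apart, at signals of 1426 and 9313. Of the 3 tested genes of the family of Mitf, Mitf (-3.36 ± 0.46) and Tfeb (-2.69 ± 0.43) were called lower, and Tfe3 differed by -0.01 ± 0.46. Tfeb did not pass with the title date as a replicate block (adjusted p of 0.0771) or without non-pigmented replicate 1 (0.155) or 2 (0.0820).

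**Figure D5:**
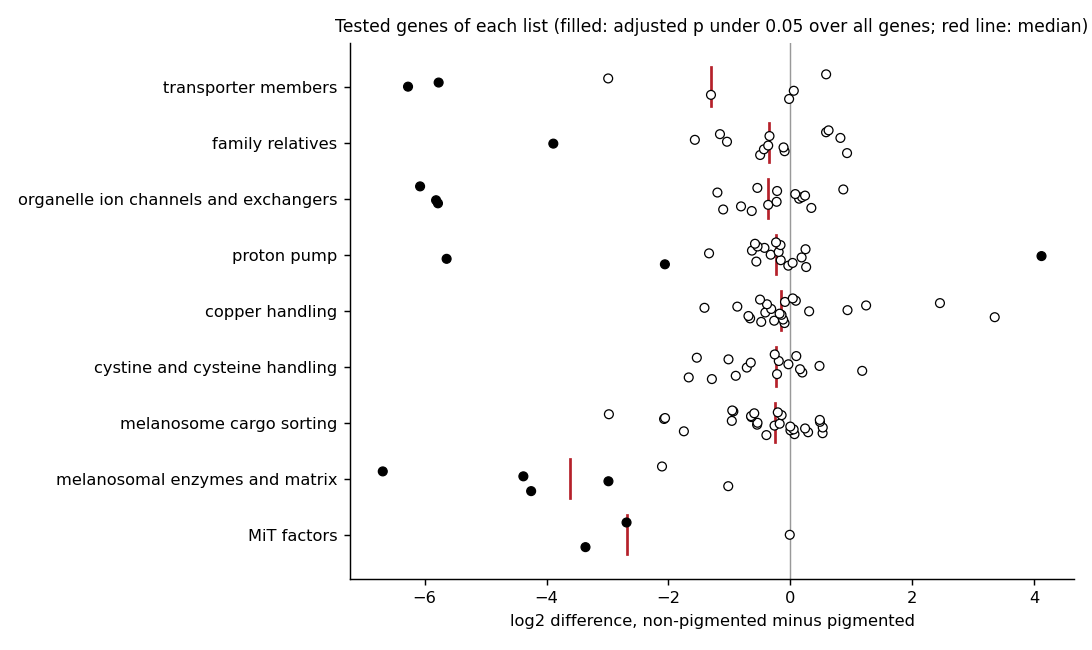
Log2 difference, non-pigmented minus pigmented, of every tested gene of each list (filled, adjusted p under 0.05 over all genes; red line, list median). The medians of the copper, cystine, cargo sorting and proton pump lists lie between -0.26 and -0.16, that of the 7 transporters at -1.30 and that of the melanosomal enzymes and matrix at -3.62.

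The genes with the most similar pattern were taken by the root mean square distance of centred log2 values over the 4 arrays, 2 for each transporter. They were Trpm1 (distance 0.13) and Sytl2 (0.22) for Oca2, and Gpr143 (0.06) and Atp6v0d2 (0.25) for Slc24a4. Slc45a2 was nearest to Insc (0.21) and Prss12 (0.22), and Ctns to Npc1l1 and Hscb (both 0.04). Tpcn2 was nearest to Chpt1 (0.02) and Mxi1 (0.04), Atp7a to Rassf7 and Gnb1 (both 0.03), and Mfsd12 to Cyp2c70 and Ptprcap (both 0.01). With 4 arrays in 2 groups, such a distance describes these arrays alone. The short distances of Tpcn2, Atp7a and Mfsd12 come with differences between -0.02 and 0.59, a range that holds many genes.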

How the data were processed

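Each deposited value is the linear intensity of a probe set, made with Affymetrix Expression Console per the submitters' processing notes. Its version and summary algorithm are not given in the sources used here. The authors had scaled each array, since trimming 2% of the values at either end left a mean of 500 in every column. This corrects neither RNA integrity nor background, and no detection column was used. Of 45101 probe sets, 64 controls were left out. The platform annotation gave a single symbol to 34945, several to 932 and none to 9160. Through the Entrez number 34741 matched RefSeq, and 0 symbols changed. A gene was represented by its probe set of highest mean. Genes under the 40th percentile of mean log2 values (6.44, a signal of 70.7) were dropped, leaving 12558 genes and, in the same test on probe sets, 27022 probe sets. The number of arrays limits the precision.

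Log2(signal + 16) was tested with limma 3.58.1 in R 4.3.3 (eBayes with an intensity trend, no other term) and Benjamini-Hochberg adjustment over all genes or probe sets. The code was tested on simulated data. Plots used Python 3.11.15 and matplotlib 3.10.9.

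The members, the lists and the rule for named genes were chosen with earlier results of these data known. The rule took all members, the called genes of each list (at most 4, by p) with the uncalled gene of smallest p, and the 2 nearest patterns. List members outside it were chosen after their values were seen, and markers and other list genes not named were counted only.

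The titles carry 2 dates, each shared by 1 array of either line, and these arrays were of unlike RNA integrity. Deviations from the line means correlated, for arrays of one date, at -0.51 across genes, and those of arrays of like RNA integrity at 0.51, which with 2 arrays per line is the same value with its sign turned. Alternatives were the title date as a replicate block, the RNA integrity pair (Gapdh ratio under or over 3) as a block, centring on the median, quantile normalization, no filter or one at the 60th percentile, pseudocounts of 1 and 64, eBayes without trend or robust, probe sets unique to a gene, averaging the probe sets of each gene, and leaving out each array, where the lone array of a line is assumed to vary like the other line.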

Additional observations from a re-analysis of the deposited data

How the results depend on the processing

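Oca2 and Slc24a4 were called lower under all 16 alternatives, with differences of -6.45 to -5.81 and -6.41 to -4.72. Slc45a2 was called in 9 of 16, with differences of -3.67 to -2.31 and adjusted p-values of 0.0122 to 0.134. Ctns was never called, at -1.44 to -1.06 (adjusted p of 0.0893 to 0.730). Tpcn2 was not called in 15 alternatives (0.23 to 0.94) and was too dim for the filter at the 60th percentile. The number of transporters called was 2 or 3 throughout, and without single arrays 2 to 3. The sign of Atp7a turned after centring on the array median (0.22), in which the median of all genes moved to 0.18 from -0.07. Without single arrays Atp7a ranged from -0.27 to 0.23, its probe set 1418774_a_at from -0.75 to 0.16, and Mfsd12 from -0.13 to 0.24, none called.

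Over all genes 422 were called, 392 with the title date as a replicate block, 884 with the RNA integrity pair as a block and 234 to 772 without single arrays (234 without non-pigmented replicate 2, 772 without pigmented replicate 1). Over all probe sets 402 were called, 378 with the date as a replicate block, 1255 with the integrity pair as a block, 251 without the filter and 170 to 765 without single arrays (170 without non-pigmented replicate 2, 238 without non-pigmented replicate 1, 765 without pigmented replicate 1). Without the filter more probe sets enter the adjustment. For the other changes the cause was not tested. The replicate block changed no call of a transporter other than Slc45a2. Levels below the filter signal of 70.7 cannot be told from background. That signal is the 40th percentile of mean log2 values and not a measured detection limit, so dim signals above it may be background too.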

Other observations

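The filter on dim probe sets left out genes of the cystine list whose lines nevertheless did not overlap, and which were picked here after their values were seen. Cth, the enzyme that makes cysteine from cystathionine, read 6.97 and 10.3 on the non-pigmented and 422 and 182 on the pigmented arrays. Fitted without the filter over 18193 genes, its difference was -3.58 ± 0.58 with an adjusted p of 0.0471 by limma. Slc7a11, the cystine importer whose loss gives subtle gray mice, read 125 and 106 on the non-pigmented and 4.12 and 13.8 on the pigmented arrays. Its difference was 2.42 ± 0.48 with an adjusted p of 0.0861 in that fit, and both of its 2 probe sets ran that way. The lower line of either gene lay below the filter signal of 70.7, so the sizes depend on the pseudocount.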
